A study of Mus musculus with 24 samples.

Results

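The genes *Nr4a1*, *Nr4a2* and *Nr4a3* encode the orphan nuclear receptors of the Nr4a family. They were taken by symbol from a table of read counts for 51826 mouse genes, so 3 of 51826 genes are described, and all 3 were measured in every library. The RNA came from dorsal hippocampus of male C57BL/6j mice aged 2 to 4 months, either CBP KIX/KIX or WT littermates. The study's methods instead name both sexes and an age of about 3 months, so the sex of these mice is not certain. CBP KIX/KIX mice carry 3 point mutations in the KIX domain of the coactivator CBP in every cell from development on, so that an effect of the mutation in the adult hippocampus cannot be told apart from one on its development. RNA-Seq 1 held 3 WT homecage mice, 3 WT mice and 3 CBP KIX/KIX mice, the trained mice taken 1 h after the last trial of day 3 in the Morris water maze (MWM). RNA-Seq 2 held 3 WT homecage, 4 WT, 4 CBP KIX/KIX and 4 CBP KIX/KIX homecage mice, the trained mice taken 1 h after contextual fear conditioning (CFC) with 1 shock. Homecage mice were not trained, and those of RNA-Seq 2 were handled. Ribosomal RNA was removed from total RNA for RNA-Seq 1, whereas RNA-Seq 2 was made from polyA-selected RNA at another site, so the task, library type and sequencing run cannot be told apart between them. RNA-Seq 1 held no CBP KIX/KIX homecage mice.

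Nr4a receptors bind DNA without a known natural ligand, and their activity is set largely by how much of the protein is made. In neurons their genes are immediate early genes, switched on by calcium and cAMP signals without new protein synthesis. CREB bound at cAMP response elements in their promoters is a main route, and CREB phosphorylated at its kinase-inducible domain recruits CBP through the KIX domain. *Nr4a2* is also known for the development and upkeep of midbrain dopamine neurons, and in the cortex it marks deep-layer and subplate neurons.

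In the GRCm38 build, GENCODE M21 places *Nr4a1* (ENSMUSG00000023034) on the plus strand of chromosome 15 (101254269 to 101274795), *Nr4a2* (ENSMUSG00000026826) on the minus strand of chromosome 2 (57106830 to 57124003) and *Nr4a3* (ENSMUSG00000028341) on the plus strand of chromosome 4 (48045153 to 48086447). No other annotated gene overlapped them. The stretches just upstream of the RefSeq start sites are printed because CREB reaches these genes through such sequence. Capitals mark the half-site of the cAMP response element, TGACG or its reverse complement CGTCA, found on either strand of the window. The sequences are RefSeq's for GRCm38.p6, written 5′ to 3′ in the direction of transcription, at chr15:101266596-101266845, chr2:57124004-57124253 and chr4:48045055-48045152.
Nr4a1: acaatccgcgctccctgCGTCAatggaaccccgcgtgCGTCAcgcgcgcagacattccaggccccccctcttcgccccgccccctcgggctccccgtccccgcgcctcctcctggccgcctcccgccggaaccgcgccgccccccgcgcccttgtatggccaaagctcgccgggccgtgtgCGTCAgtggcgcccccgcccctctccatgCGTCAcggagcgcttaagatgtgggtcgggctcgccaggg
Nr4a2: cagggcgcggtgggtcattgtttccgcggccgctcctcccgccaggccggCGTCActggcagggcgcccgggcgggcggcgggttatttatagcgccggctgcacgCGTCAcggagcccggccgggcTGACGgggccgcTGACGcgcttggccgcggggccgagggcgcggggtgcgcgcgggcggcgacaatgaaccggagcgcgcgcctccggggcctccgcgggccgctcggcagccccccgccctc
Nr4a3: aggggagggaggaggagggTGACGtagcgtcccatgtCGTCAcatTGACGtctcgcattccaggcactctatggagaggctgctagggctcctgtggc
Each of the 3 genes had 4 half-sites within the 250 bases upstream of its RefSeq start, and 1 or more were found in 17.8% of the 32851 mouse promoters searched in the same way. A promoter with at least 4 was found for 0.137% of them. For *Nr4a3* only the 98 bases before the first annotated exon are printed, with 3 of its 4 half-sites. The full element TGACGTCA, which contains both half-sites, was in none of the 3 windows and in 1.55% of all promoters. The Nr4a receptors' own response element AAAGGTCA, or TGACCTTT on the other strand, was in none of the 3 and in 1.34%. These are matches of letters and do not show binding.

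Libraries held 38174044 to 65709282 counts in RNA-Seq 1 and 15385836 to 46056290 in RNA-Seq 2, where replicates 1 and 2 were deeper than replicates 3 and 4. The members had between 369 and 6913 counts in each library, far above the floor of 3 counts, so their precision was set by the spread between mice more than by depth. Levels are given as CPM, a gene's counts scaled to the size of the library after upper-quartile normalization. *Crebbp*, which encodes CBP, lay at 212 ± 39.9, 197 ± 29.7 and 183 ± 15.6 CPM (SD, n = 3 each) in the homecage WT, MWM-trained WT and MWM-trained CBP KIX/KIX mice of RNA-Seq 1. In RNA-Seq 2 it lay at 66.2 ± 4.59 (n = 3), 64.4 ± 4.12, 63.1 ± 4.23 and 66.6 ± 3.85 CPM (SD, n = 4 each) in WT homecage, WT CFC, CBP KIX/KIX homecage and CBP KIX/KIX CFC mice. Gene counts do not show the point mutations. The 4 markers of hippocampal excitatory neurons summed to between 5231 and 9683 CPM in every library, and markers of dentate gyrus, CA1 and CA3 were present in all. The 6 choroid plexus markers varied widely, summing to between 26.3 and 4110 CPM in RNA-Seq 2 and between 140 and 2908 CPM in RNA-Seq 1.

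One library stood apart for these genes. CBP KIX/KIX homecage replicate 3, an untrained mouse, had 288 CPM of *Nr4a1*, 96.7 CPM of *Nr4a2* and 167 CPM of *Nr4a3*. Each value was the highest of the 15 libraries of RNA-Seq 2, trained mice included. Of 26 activity-induced genes, such as *Fos*, *Arc* and *Npas4*, 20 were also highest of the 15 in that library. The share of all genes that were highest there was not counted. *Fos*, the classical marker of recent neuronal activity, lay at 105 CPM there, at 1.64 to 4.31 CPM in the other 3 CBP KIX/KIX homecage libraries and at no more than 30.1 CPM in any other library of RNA-Seq 2. Its genotype label was not contradicted by *Papss2*, a gene chosen after its values were seen, which lay at 8.81 CPM there, at 6.14 to 8.57 CPM in the other CBP KIX/KIX libraries and at 14.6 to 17.9 CPM in the WT libraries of RNA-Seq 2. *Gfap*, the filament protein of reactive astrocytes, was at 304, 553, 799.99 and 1442 CPM in CBP KIX/KIX homecage replicates 1 to 4 and at 225 to 335 CPM in the other groups of RNA-Seq 2. Some activity-induced genes were also high in replicate 4. *Nptx2*, *Bdnf*, *Homer1* and *Ier5* lay at 149, 115, 135 and 93.9 CPM there and at no more than 30.3, 46.9, 95.4 and 52.0 CPM in the other groups. The median log2 ratio of the 26 to the WT homecage mean was 0.09 in replicate 4. Replicate 4 was therefore also unusual. The part of these differences in the Nr4a values was not tested. Results that rest on the CBP KIX/KIX homecage group are therefore given with and without replicate 3.

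**Figure D1:**
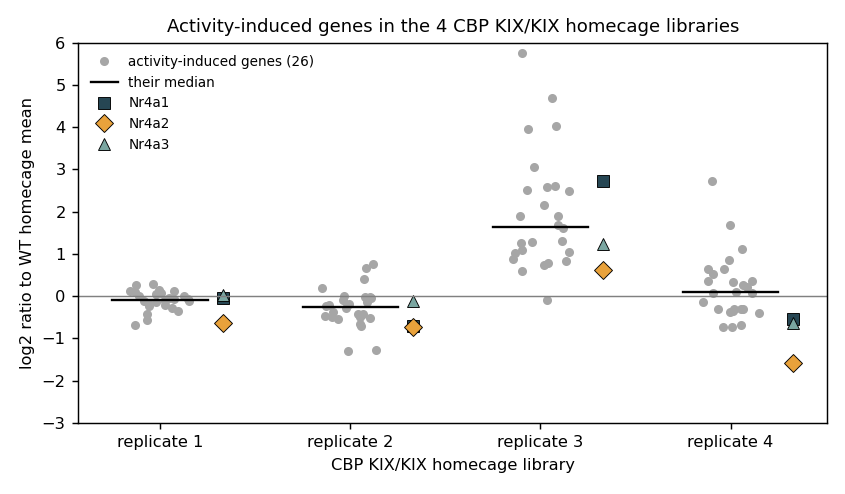
Log2 ratio of each gene's CPM to the mean of the 3 WT homecage libraries (y axis) in the 4 CBP KIX/KIX homecage libraries of RNA-Seq 2 (x axis). Grey points are 26 activity-induced genes, bars their median (1.65 in replicate 3 and between -0.26 and 0.09 in the others), and colored symbols the 3 Nr4a genes. Single genes are also high in replicate 4, such as *Nptx2* at 2.74.

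*Nr4a1*, the family member most studied as an immediate early gene, was at 44.4, 76.4 and 52.9 CPM in the 3 WT homecage mice of RNA-Seq 1. In WT mice trained in the MWM it was at 124, 128 and 91.9 CPM, and in CBP KIX/KIX mice trained in the MWM at 92.2, 72.4 and 108 CPM. All 6 trained mice but 1 CBP KIX/KIX mouse therefore exceeded every homecage mouse of that experiment, while the trained WT and CBP KIX/KIX ranges overlapped. In RNA-Seq 2 *Nr4a1* was at 46.0, 44.5 and 40.4 CPM in WT homecage mice and at 106, 97.4, 96.8 and 93.7 CPM in WT mice after CFC. CBP KIX/KIX mice had 84.0, 78.2, 77.3 and 83.0 CPM after CFC and 42.0, 26.9, 288 and 30.1 CPM in homecage. Without the homecage mouse at 288 CPM, homecage and CFC mice of either genotype did not overlap, and no CBP KIX/KIX mouse reached the lowest WT mouse after CFC. With that mouse the CBP KIX/KIX homecage and CFC mice overlapped. The share of all genes that did not overlap between such small groups was not counted, here or for the other members.

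*Nr4a2* was at 42.3, 75.8 and 56.4 CPM in WT homecage mice of RNA-Seq 1, at 83.9, 70.8 and 67.1 CPM in WT MWM mice and at 51.4, 36.6 and 63.2 CPM in CBP KIX/KIX MWM mice. After the MWM every CBP KIX/KIX mouse lay below every WT mouse. In RNA-Seq 2 it was at 62.6, 71.5 and 55.8 CPM in WT homecage and at 82.2, 62.8, 72.7 and 57.2 CPM in WT CFC mice, which overlapped. CBP KIX/KIX mice had 80.8, 43.2, 47.4 and 46.7 CPM after CFC and 40.4, 38.0, 96.7 and 20.9 CPM in homecage. The first CBP KIX/KIX mouse after CFC was within the WT range and the other 3 were below it.

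*Nr4a3* encodes the third receptor of the family. It was at 78.2, 78.7 and 54.9 CPM in WT homecage, 77.8, 106 and 72.9 CPM in WT MWM and 82.4, 70.9 and 70.3 CPM in CBP KIX/KIX MWM mice of RNA-Seq 1, and these 3 groups overlapped. In RNA-Seq 2 it was at 75.7, 71.2 and 67.7 CPM in WT homecage mice and at 101, 82.4, 103 and 92.1 CPM in WT mice after CFC, which did not overlap. CBP KIX/KIX mice had 82.4, 95.1, 90.2 and 84.9 CPM after CFC, within the WT range, and 73.2, 66.1, 167 and 45.8 CPM in homecage.

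**Figure D2:**
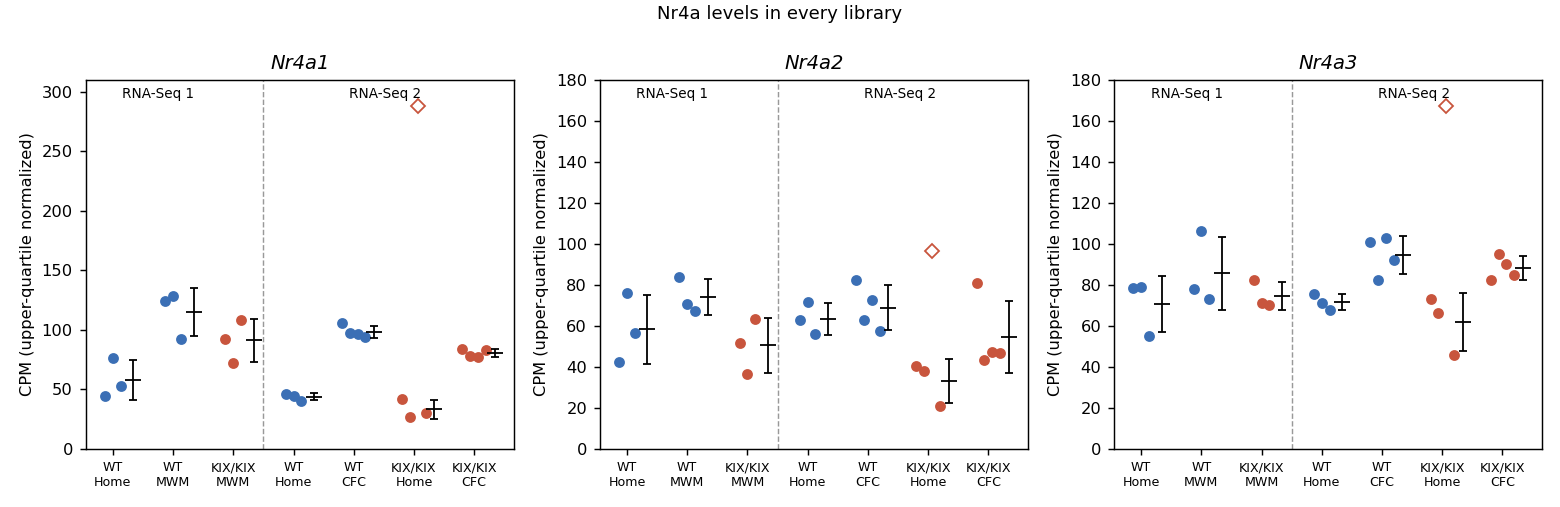
CPM of *Nr4a1*, *Nr4a2* and *Nr4a3* (y axes) in every library by group, with WT in blue and CBP KIX/KIX in red. Bars show mean ± SD, and the open diamond is CBP KIX/KIX homecage replicate 3 (288, 96.7 and 167 CPM), which is left out of the bars.

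The first comparison asked which genes differ 1 h after learning in WT mice. *Nr4a1* rose by 1.09 ± 0.10 on the log2 scale (SE, 6 homecage against 7 trained mice) and was higher in 7 of 7 trained mice than the homecage mean of their experiment (edgeR's quasi-likelihood test, adjusted p = 4.06e-05). It had the 4th lowest p of 22038 genes. *Nr4a3* rose by 0.35 ± 0.07, higher in 7 of 7 mice, with an adjusted p of 0.0276 in the same edgeR fit. *Nr4a2* was higher by 0.24 ± 0.08 in that fit, in 5 of 7 mice, and did not pass (edgeR, adjusted p = 0.185). Thus 2 of 3 members were called higher, beside 0.467% of all genes tested called higher, 0.413% called lower and 0.88% in either direction. The exact permutation test of log2 CPM, two-sided and within experiments, gave p = 0.00143 for *Nr4a1*, the smallest it can give, 0.0171 for *Nr4a3* and 0.139 for *Nr4a2*. These are 3 of 24 such tests over the members and comparisons, not adjusted. Those with CBP KIX/KIX homecage mice were also repeated without replicate 3, beyond the 24.

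The fit held 3 factors of unwanted variation estimated from the data (RUVr). Without them *Nr4a1* passed, at 1.08 ± 0.11 (edgeR, adjusted p = 0.000278), and *Nr4a3* did not, at 0.34 (adjusted p = 0.679). The call of *Nr4a3* was also lost without WT homecage replicate 1 or 2 of RNA-Seq 2 or without WT CFC replicate 4, at adjusted p from 0.0502 to 0.067 (edgeR). In the fit with factors 5 of 6 choroid plexus markers were higher after training at an adjusted p under 0.05. Within RNA-Seq 1 or RNA-Seq 2 alone edgeR called none of the 6. Their sums varied widely within groups of RNA-Seq 2, from 26.3 to 1641 CPM in WT homecage and from 34.1 to 4110 CPM in WT CFC mice. With their score as a covariate in place of the factors *Nr4a1* differed by 1.12 ± 0.11 (edgeR, adjusted p = 0.000191). *Cldn5*, an endothelial tight junction gene, fell by 0.49 ± 0.09 (edgeR, adjusted p = 0.0202), 1 of 3 endothelial markers called. In RNA-Seq 1 the 3 endothelial markers summed to 135 to 164 CPM in WT homecage and 93.1 to 123 CPM in WT MWM mice, and the 3 dentate gyrus markers to 348 to 401 and 261 to 283 CPM, in both cases without overlap. In RNA-Seq 2 they summed to 101 to 124 and 97.0 to 111 CPM for endothelium and to 167 to 217 and 184 to 217 CPM for dentate gyrus in WT homecage and WT CFC mice, which overlapped. The part of these cells in the Nr4a values was not tested.

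In RNA-Seq 1 alone *Nr4a1* differed by 0.98 ± 0.19 between WT MWM and WT homecage mice (edgeR's quasi-likelihood test, adjusted p = 0.173), *Nr4a2* by 0.34 ± 0.20 and *Nr4a3* by 0.28 ± 0.16. None of the 3 was called there, beside 0.0135% of all genes (0.00898% higher and 0.00449% lower), and DESeq2 called *Nr4a1* (1.05, adjusted p = 7.16e-05). With 3 against 3 mice the exact permutation test cannot go below 0.1, which *Nr4a1* reached. In RNA-Seq 2 the spread was estimated over all 4 groups, and CBP KIX/KIX homecage replicate 3 widened it: *Nr4a1* differed by 1.17 ± 0.61 between WT CFC and WT homecage mice with that library (edgeR, adjusted p = 1.0) and rose by 1.17 ± 0.11 without it (edgeR, adjusted p = 0.000178). With the library 0 of 18851 genes were called by edgeR and 0 by DESeq2 (450 and 356 at an unadjusted p under 0.05), and without it 17, or 0.0892%, all higher. *Nr4a3* differed by 0.40 ± 0.12 and *Nr4a2* by 0.11 ± 0.23 without it, neither called (edgeR, adjusted p = 1.0 for both). The exact permutation p in RNA-Seq 2 was 0.0286 for *Nr4a1*, the smallest possible, 0.0571 for *Nr4a3* and 0.486 for *Nr4a2*.

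The difference between the training effects of the experiments was tested with an interaction term. MWM minus CFC was -0.18 (95% interval -0.67 to 0.30) for *Nr4a1*, 0.23 (-0.46 to 0.93) for *Nr4a2* and -0.12 (-0.55 to 0.32) for *Nr4a3* without the library that stood apart. With it in the fit the intervals were -1.70 to 1.33, -0.73 to 1.19 and -0.89 to 0.65. None was called (edgeR, adjusted p = 0.855, 0.874 and 0.904 without that library), and differences as large as these intervals hold were not detectable.

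Levels per kilobase of exon can be compared between genes, and the shares made from them are given as a description, with no test. In WT homecage mice of RNA-Seq 2 the per-length level was 12.4 ± 0.83 CPM per kb for *Nr4a1*, 15.6 ± 1.95 for *Nr4a2* and 11.95 ± 0.67 for *Nr4a3* (SD, n = 3). After CFC in WT mice it was 28.0 ± 1.45, 16.9 ± 2.72 and 15.8 ± 1.55 CPM per kb (SD, n = 4). *Nr4a1* was therefore 31.1% ± 0.94 of the family sum in WT homecage and 46.3% ± 2.22 after CFC, and *Nr4a2* went from 38.9% ± 2.45 to 27.7% ± 2.16 (SD of per-mouse shares), although its own level was not lower after CFC. In RNA-Seq 1 the share of *Nr4a1* was 38.4% ± 2.99 in WT homecage, 49.97% ± 1.97 in WT MWM and 50.9% ± 1.89 in CBP KIX/KIX MWM mice (SD, n = 3 each). In CBP KIX/KIX mice it was 45.1% ± 2.65 after CFC (n = 4) and in homecage 40.9% ± 14.6 with all 4 mice and 34.1% ± 6.44 without replicate 3 (n = 3). In that homecage group *Nr4a2* had 26.1% ± 6.70 and *Nr4a3* 33.0% ± 8.23 with all mice, and 28.9% ± 4.62 and 37.0% ± 2.05 without replicate 3, so which gene had the largest mean share turned on that library.

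**Figure D3:**
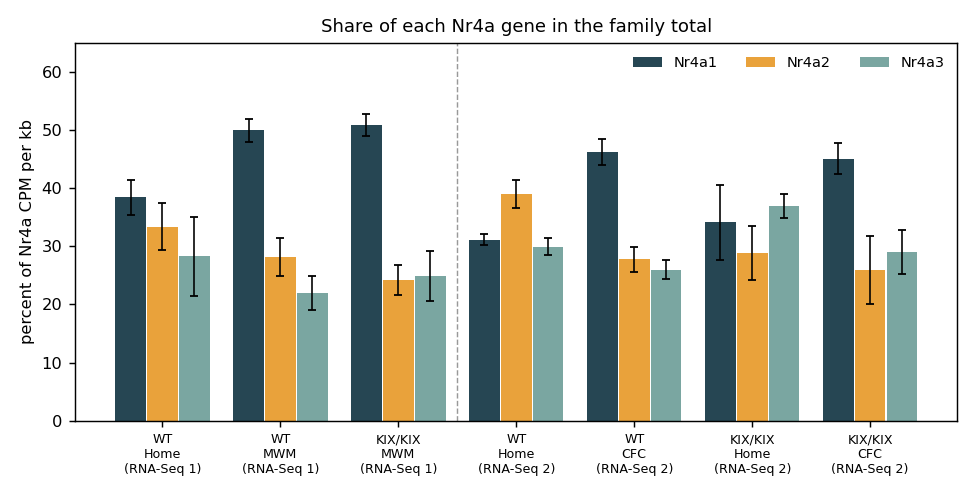
Share of each Nr4a gene in the family's summed CPM per kb of exon (y axis, percent), by group (x axis), as mean ± SD over mice, with CBP KIX/KIX homecage replicate 3 left out. *Nr4a1* takes 31.1% in WT homecage and 46.3% in WT CFC mice of RNA-Seq 2, and 38.4% and 49.97% in RNA-Seq 1.

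The second comparison asked how the KIX mutation changes expression after learning. *Nr4a2* fell by 0.45 ± 0.05 on the log2 scale in CBP KIX/KIX against WT trained mice (SE, 7 against 7, edgeR, adjusted p = 0.000147), with the 6th lowest p of 21489 genes. *Nr4a1* fell by 0.31 ± 0.06 (edgeR, adjusted p = 0.00736). *Nr4a3* was lower by -0.14 ± 0.05 and did not pass (edgeR, adjusted p = 0.206). *Nr4a1* lay below the WT mean of its experiment in 7 of 7 CBP KIX/KIX mice, and *Nr4a2* and *Nr4a3* in 6 of 7. Thus 2 of 3 members were called lower, beside 1.25% of all genes called lower and 2.06% in either direction. The exact permutation test, two-sided and within experiments, gave p = 0.0129 for *Nr4a1*, 0.0214 for *Nr4a2* and 0.157 for *Nr4a3*. The WT trained mice are shared with the first comparison, so the values of both are given side by side only.

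These calls rested on the 4 RUVr factors of the fit. Without factors the estimates were -0.30 for *Nr4a1* (edgeR, adjusted p = 0.26) and -0.42 for *Nr4a2* (adjusted p = 0.45), and 4 genes in all were called. With within-library GC normalization *Nr4a1*, which has the highest exonic GC content of the family (57.0%), was at -0.25 (edgeR, adjusted p = 0.0608).

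Markers of other regions moved with the genotype. *Cplx3*, a synaptic gene of deep-layer and subplate neurons, fell by 0.48 ± 0.09 (edgeR, adjusted p = 0.00952). It was the 1 called of 6 markers of subiculum and deep cortex, of which 5 were lower (median -0.18). Within experiments 6 of 6 were lower after the MWM (median -0.39) and 2 of 6 after CFC (median 0.066), none of them called. The 6 markers summed, after the MWM, to 188 to 206 CPM in WT and 141 to 212 CPM in CBP KIX/KIX mice, and after CFC to 132 to 155 and 118 to 173 CPM. The CBP KIX/KIX CFC mouse with 80.8 CPM of *Nr4a2* had 20.7 CPM of *Ccn2*, another marker in the list, and 9.49 CPM of *Cplx3*, where the other 3 of its group had 3.21 to 13.9 and 1.97 to 3.75 CPM. With the mean log2 CPM of the 6 markers as a covariate beside the factors, *Nr4a2* fell by 0.27 ± 0.05 (edgeR, adjusted p = 0.0074) and *Nr4a1* by 0.24 ± 0.06 (adjusted p = 0.0382). In CA1, 3 of 3 markers were lower in CBP KIX/KIX trained mice, and *Fibcd1* was called, falling by 0.30 ± 0.06 (edgeR, adjusted p = 0.0177). After the MWM their sum was 826 to 995 CPM in WT and 704 to 767 CPM in CBP KIX/KIX mice, without overlap, and it was 295 to 358 and 270 to 306 CPM after CFC, with overlap. In the dentate gyrus 3 of 3 markers were higher, and *Prox1* was called, rising by 0.20 ± 0.04 (edgeR, adjusted p = 0.0231). After the MWM their sum was 261 to 283 CPM in WT and 276 to 376 CPM in CBP KIX/KIX mice, and it was 184 to 217 and 188 to 279.8 CPM after CFC. The astrocyte genes *Gfap* and *Aldh1l1* also fell, by 0.29 ± 0.04 and 0.26 ± 0.04 (edgeR, adjusted p = 0.00159 and 0.00164), and the 3 astrocyte markers summed to 401 to 440 CPM in CBP KIX/KIX and 485 to 531 CPM in WT mice after the MWM, and to 374 to 457 and 441 to 501 CPM after CFC; the part of CA1, dentate gyrus and astrocytes in the Nr4a values was not tested. In bulk tissue, fewer cells of a type and less RNA per cell cannot be told apart.

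Within RNA-Seq 1 alone, CBP KIX/KIX minus WT was -0.33 ± 0.19 for *Nr4a1*, -0.55 ± 0.20 for *Nr4a2* and -0.20 ± 0.16 for *Nr4a3* after the MWM (SE, 3 against 3). None was called (edgeR, adjusted p = 0.813, 0.813 and 0.816), and edgeR called 0 of 22276 genes (1286 at an unadjusted p under 0.05) where DESeq2 called 7. The exact permutation p of *Nr4a2* was 0.1, the smallest possible. With the marker score as a covariate in this experiment the differences were 0.02 ± 0.20 for *Nr4a1* and -0.06 ± 0.15 for *Nr4a2*. Within RNA-Seq 2 the differences after CFC were -0.28 ± 0.10, -0.33 ± 0.21 and -0.09 ± 0.11 without CBP KIX/KIX homecage replicate 3 (SE, 4 against 4, edgeR, adjusted p = 1.0 for all), beside 0.0105% of all genes called. With that library in the fit they were -0.28 ± 0.55, -0.32 ± 0.32 and -0.09 ± 0.26, beside 0.0106% called. *Nr4a1* did not overlap between the genotypes after CFC, and its exact permutation p of 0.0286 is the smallest that 4 against 4 mice allow. In the deeper libraries of RNA-Seq 2 (replicates 1 and 2) the log2 ratio of group means was -0.32 for *Nr4a1* and -0.23 for *Nr4a2*, and in the shallower ones (replicates 3 and 4) it was -0.25 and -0.47.

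The difference between the genotype effects of the experiments, MWM minus CFC and without the library that stood apart, was -0.05 (95% interval -0.51 to 0.42) for *Nr4a1*, -0.22 (-0.89 to 0.45) for *Nr4a2* and -0.10 (-0.52 to 0.32) for *Nr4a3*. With it in the fit the intervals were -1.50 to 1.41, -1.15 to 0.71 and -0.84 to 0.64. None was called (edgeR, adjusted p = 0.992, 0.966 and 0.976 without that library).

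The third comparison asked whether the genotypes differ without training, in the homecage mice of RNA-Seq 2. With all 4 CBP KIX/KIX mice the difference from WT was 1.13 ± 0.80 for *Nr4a1*, -0.38 ± 0.40 for *Nr4a2* and 0.29 ± 0.37 for *Nr4a3* (edgeR, adjusted p = 0.848, 0.909 and 0.925). None was called, beside 0.0107% of all genes. Without replicate 3 the signs of *Nr4a1* and *Nr4a3* turned. The differences were then -0.40 ± 0.16 for *Nr4a1* (95% interval -0.77 to -0.03), -0.92 ± 0.22 for *Nr4a2* (-1.43 to -0.40) and -0.20 ± 0.16 for *Nr4a3* (-0.57 to 0.16), and none passed (edgeR, adjusted p = 0.999 for each). In that fit 0 of 18401 genes were called by edgeR, with 780 at an unadjusted p under 0.05. The 3 remaining CBP KIX/KIX mice had less *Nr4a2* than every WT homecage mouse, with an exact permutation p of 0.1, the smallest that 3 against 3 allow. In that fit 5 of 6 subiculum and deep cortex markers were lower and 1 higher (median -0.33, 0 called). Among them *Cplx3* and *Ccn2* were at -0.94 ± 0.16 and -0.92 ± 0.24 (edgeR, adjusted p = 0.515 and 0.999). The 3 CA1 markers were lower, with *Wfs1* at -0.40 ± 0.07 (edgeR, adjusted p = 0.515). With replicate 3 *Cplx3*, *Ccn2* and *Wfs1* were at -0.94 ± 0.14, -0.51 ± 0.36 and -0.41 ± 0.06 (edgeR, adjusted p = 0.189, 0.848 and 0.189). *Ccn2* lay at 19.5 CPM in replicate 3 and at 5.95, 9.93 and 8.57 CPM in replicates 1, 2 and 4. The part of subiculum, deep cortex and CA1 tissue in the homecage value of *Nr4a2* was not tested. Without replicates 3 and 4 *Nr4a2* was at -0.70 ± 0.10 (edgeR, adjusted p = 0.31, 2 against 3 mice).

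Training in CBP KIX/KIX mice was compared with their own homecage group. With all libraries *Nr4a1* differed by -0.24 ± 0.55, *Nr4a2* by 0.17 ± 0.33 and *Nr4a3* by 0.01 ± 0.26 (SE, 4 against 4, edgeR, adjusted p = 0.905, 0.876 and 0.994), and edgeR called 0 of 18851 genes (2457 at an unadjusted p under 0.05) where DESeq2 called 301. Without homecage replicate 3 *Nr4a1* rose by 1.29 ± 0.12 (edgeR, adjusted p = 7.44e-05). *Nr4a2* then differed by 0.70 ± 0.23 (edgeR, adjusted p = 0.341) and *Nr4a3* by 0.50 ± 0.12 (adjusted p = 0.199). One of 3 members was called higher, beside 0.0787% of all genes called higher, 0.00524% lower and 0.0839% in either direction. In all 3 genes the 4 CFC mice then lay above the 3 homecage mice, each with an exact permutation p of 0.0286, the smallest possible. The share of all genes that separated in this way was not counted. In that edgeR fit 1987 of 19066 genes had an unadjusted p under 0.05. Replicate 3 was left out after its high values of these same genes were seen, so the values without it are not an independent test of training. With all mice the exact permutation p was 0.657 for *Nr4a1*, 0.486 for *Nr4a2* and 0.686 for *Nr4a3*.

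The interaction of genotype and CFC training gives the difference between these training effects directly, as CBP KIX/KIX minus WT. It was -1.40 (95% interval -3.14 to 0.34) for *Nr4a1*, 0.064 (-0.95 to 1.08) for *Nr4a2* and -0.38 (-1.21 to 0.44) for *Nr4a3* with all libraries (edgeR, adjusted p = 0.95, 0.999 and 0.961). Without replicate 3 it was 0.12 (95% interval -0.22 to 0.46) for *Nr4a1*, 0.59 (-0.11 to 1.28) for *Nr4a2* and 0.11 (-0.26 to 0.48) for *Nr4a3* (edgeR, adjusted p = 1.0 for all). Replicate 3 stood apart by its *Nr4a1* value among others, so the narrower intervals depend on leaving out a library for its measured values. The group means of *Nr4a1* in RNA-Seq 2, without that library, ran from CBP KIX/KIX homecage (33.0 ± 7.95 CPM, n = 3) through WT homecage (43.6 ± 2.92, n = 3) and CBP KIX/KIX CFC (80.6 ± 3.37, n = 4) to WT CFC (98.4 ± 5.09, n = 4, SD). The individual mice of the first 2 neighbours in this order overlapped and those of the other neighbours did not. For *Nr4a2* the order was CBP KIX/KIX homecage (33.1 ± 10.6 CPM), CBP KIX/KIX CFC (54.5 ± 17.6), WT homecage (63.3 ± 7.90) and WT CFC (68.8 ± 11.05), where all neighbours but the first pair overlapped. For *Nr4a3* it was CBP KIX/KIX homecage (61.7 ± 14.2 CPM), WT homecage (71.5 ± 3.99), CBP KIX/KIX CFC (88.1 ± 5.65) and WT CFC (94.5 ± 9.28), and only WT homecage and CBP KIX/KIX CFC mice did not overlap among neighbours. With replicate 3 the CBP KIX/KIX homecage mean was 96.7 ± 128 CPM for *Nr4a1* (SD, n = 4), between CBP KIX/KIX CFC and WT CFC, 49.0 ± 32.9 CPM for *Nr4a2*, again the lowest, and 88.1 ± 54.0 CPM for *Nr4a3*, beside CBP KIX/KIX CFC, and that group then overlapped every other. In RNA-Seq 1 the order was WT homecage, CBP KIX/KIX MWM and WT MWM for *Nr4a1* (57.9 ± 16.6, 91.0 ± 18.0 and 115 ± 19.9 CPM) and for *Nr4a3* (70.6 ± 13.6, 74.6 ± 6.83 and 85.6 ± 17.9 CPM), with overlap of all neighbours. For *Nr4a2* it was CBP KIX/KIX MWM (50.4 ± 13.3 CPM), WT homecage (58.2 ± 16.8) and WT MWM (73.9 ± 8.82), also with overlap of neighbours.

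**Figure D4:**
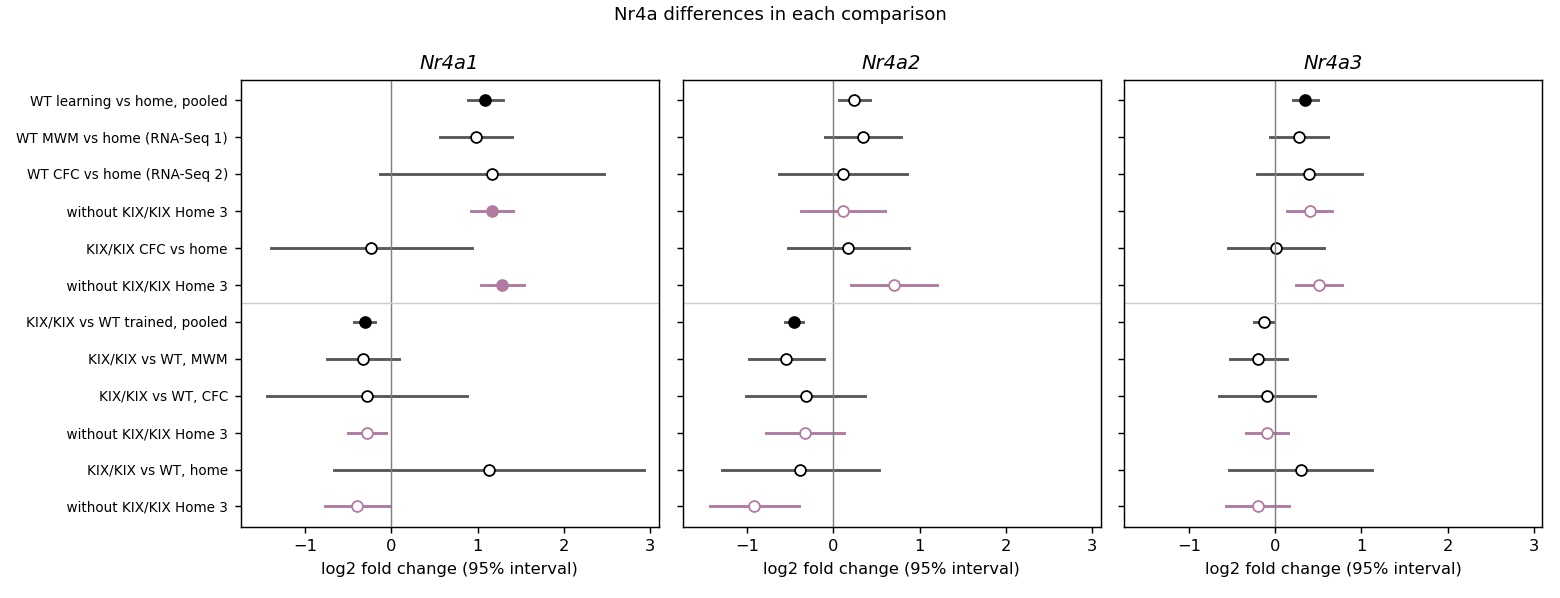
Log2 fold change (x axis) of each Nr4a gene with its 95% interval in each comparison (rows), from edgeR, with filled points where the adjusted p was under 0.05. Purple rows repeat the fit without CBP KIX/KIX homecage replicate 3, which brings *Nr4a1* in CBP KIX/KIX CFC against homecage mice from -0.24 to 1.29.

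The genes whose levels ran most like each member were ranked by the mean of 2 Pearson correlations of log2 CPM, over the 9 libraries of RNA-Seq 1 and the 15 of RNA-Seq 2, among 14259 genes. The libraries share depth classes and training groups, so the coefficients are descriptive. Nearest to *Nr4a1* were *Junb* (0.98), *Arc* (0.97), *Dusp6* (0.96), *Egr1* (0.95) and *Egr2* (0.95), which are immediate early genes, *Dusp6* being a phosphatase of the ERK pathway. Nearest to *Nr4a3* were *Ier2* (0.88), *Per1* (0.87), *Npas4* (0.81), *Egr4* (0.81) and *Junb* (0.81). Nearest to *Nr4a2* were *Lonrf1* (0.86), *Satb1* (0.80), *Tmem44* (0.79), *Chrm4* (0.79) and *Acox3* (0.79), none of them in the list of activity-induced genes. *Satb1* encodes a chromatin organizer of cortical neurons and *Chrm4* a muscarinic acetylcholine receptor. Without CBP KIX/KIX homecage replicate 3, *Lonrf1*, *Tmem44* and *Chrm4* were again among the nearest 5 of *Nr4a2* (0.91, 0.88 and 0.87) and *Junb*, *Arc*, *Egr1* and *Egr2* among those of *Nr4a1*. For *Nr4a3* only *Per1* (0.88) and *Ier2* (0.84) stayed among the nearest 5, with *Tob2* (0.88) now first, and *Elmsan1* and *Ddit4* in place of *Npas4*, *Egr4* and *Junb*. Between the members, *Nr4a1* and *Nr4a3* correlated at 0.54 in RNA-Seq 1 and, without that library, at 0.86 in RNA-Seq 2 (0.92 with it), *Nr4a1* and *Nr4a2* at 0.64 and 0.62 (0.69 with it), and *Nr4a2* and *Nr4a3* at 0.25 and 0.70 (0.74 with it).

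The list of 26 activity-induced genes gives the setting of the family. In WT mice after learning 17 of them rose and 0 fell, beside 0.467% of all genes tested called higher and 0.413% lower. The median of the 26 was 0.49, beside -0.03 over all genes. The lowest p-values belonged to *Egr1* (0.97 ± 0.08), *Arc* (1.28 ± 0.10), *Junb* (0.91 ± 0.07) and *Egr2* (2.58 ± 0.23; edgeR, adjusted p between 2.13e-05 and 4.29e-05), so that *Nr4a1*, at 1.09, was between *Egr1* and *Arc* in size. In CBP KIX/KIX against WT trained mice 10 of 26 fell and 0 rose, beside 1.25% of all genes called lower and 0.814% higher. The median of the 26 was -0.20, beside -0.01 over all genes. The calls of both comparisons come from fits with RUVr factors, without which most calls over all genes were lost. *Nptx2*, a secreted synaptic pentraxin, fell by 0.49 ± 0.05, *Fos* by 0.51 ± 0.06, *Junb* by 0.32 ± 0.04 and *Fosl2* by 0.38 ± 0.05 (edgeR, adjusted p between 8.33e-05 and 0.00187). With all libraries 0 of 26 were called after CFC in either genotype, with a median of 0.58 in WT and -0.15 in CBP KIX/KIX mice, and the interaction had a median of -0.86 (0 called). Without the library that stood apart, CFC raised 13 of 26 in WT mice (median 0.58), beside 0.0892% of all genes called higher. In CBP KIX/KIX mice it raised 12 of 26 (median 0.58), beside 0.0787% called higher. That library was left out after high values of these same genes were seen in it, so the CBP KIX/KIX count is not an independent test. The interaction was then called for 0 of 26 (median -0.10, edgeR, 672 of 19066 genes at an unadjusted p under 0.05). The genes with the lowest p-values were *Junb*, *Arc*, *Egr2* and *Fos* in WT (1.16 ± 0.08, 1.62 ± 0.13, 3.28 ± 0.28 and 2.79 ± 0.24) and *Junb*, *Arc*, *Sik1* and *Fos* in CBP KIX/KIX mice (1.11 ± 0.08, 1.65 ± 0.13, 1.36 ± 0.11 and 2.92 ± 0.25; edgeR, adjusted p between 8.51e-06 and 4.39e-05).

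The other nuclear receptors were compared with the family. Of 46 listed, 36 were tested and 0 were called in WT learning against homecage mice (edgeR, median -0.01). In CBP KIX/KIX against WT trained mice 3 of 36 fell and 0 rose, with a median of -0.04, beside 1.25% of all genes called lower and 0.814% higher. These calls come from the fit with 4 RUVr factors, and 4 genes in all were called without factors. *Nr1d1* and *Nr1d2*, the Rev-erb receptors that repress clock genes, fell by 0.34 ± 0.05 and 0.21 ± 0.04 (edgeR, adjusted p = 0.00159 and 0.00706). *Ppara*, a receptor for fatty acids, fell by 0.46 ± 0.10 (adjusted p = 0.0222). *Nr4a2* at -0.45 and *Nr4a1* at -0.31 were thus in the range of the nuclear receptors that were called. In homecage mice of RNA-Seq 2, with all CBP KIX/KIX mice, *Nr1d1*, *Nr1d2* and *Ppara* differed by -0.43 ± 0.11, -0.44 ± 0.08 and -0.11 ± 0.19. None of them was called there (edgeR, adjusted p = 0.683, 0.329 and 0.952).

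**Figure D5:**
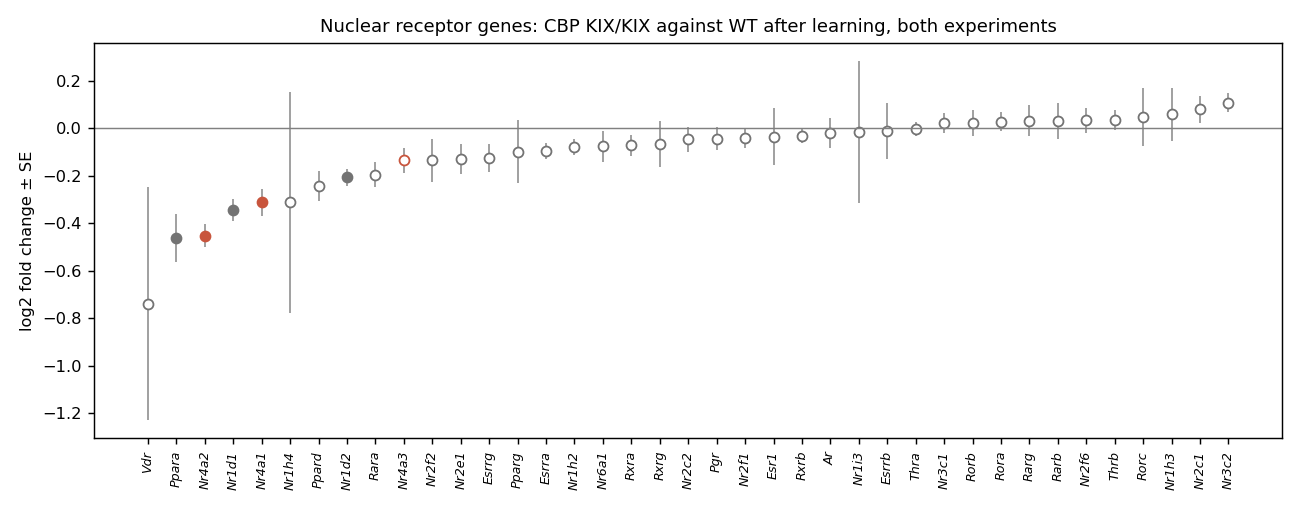
Log2 fold change ± SE (y axis) of the 3 Nr4a genes (red) and 36 other nuclear receptor genes (grey) in CBP KIX/KIX against WT mice after learning, both experiments. Filled points had an adjusted p under 0.05, namely *Ppara*, *Nr4a2*, *Nr1d1*, *Nr4a1* and *Nr1d2*, all lower.

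Genes that act upstream of the family were also measured. None of the 8 genes of the CREB family and its coactivators was called in either comparison after learning, and *Creb1* and *Crebbp* themselves differed by 0.06 ± 0.03 and -0.02 ± 0.05 between the genotypes (edgeR, adjusted p = 0.368 and 0.888). Other regulators of Nr4a transcription were MEF2, SRF and NFAT factors, and the histone deacetylases and corepressors that act on them. Of 13 such genes tested, 0 were called in WT learning mice and 1 in CBP KIX/KIX trained mice. The shares of all genes called in either direction were 0.88% and 2.06%. The gene called was *Hdac5*, which fell by 0.18 ± 0.03 (edgeR, adjusted p = 0.00562). Downstream, 14 endoplasmic reticulum chaperone genes, which Nr4a receptors are known to support in learning, had 0 calls after learning in WT mice (median 0.06) and 1 in CBP KIX/KIX trained mice. That gene was *Xbp1*, a transcription factor of the unfolded protein response, which fell by 0.15 ± 0.03 (edgeR, adjusted p = 0.0377, median of the list -0.0034). The calls of *Hdac5* and *Xbp1* come from the fit with 4 RUVr factors, without which nearly all calls over all genes were lost. Of the 7 *Nr4a2* target genes of dopamine neurons, such as *Th*, 0 were called in either comparison (edgeR, medians -0.11 and 0.01).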

How the data were processed

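Dorsal hippocampus RNA of 24 mice in 7 groups was analysed. Per the labels and the study's methods, the authors aligned paired reads with STAR (version not given in the sources used here) to mm10 (GRCm38), counted them per gene with featureCounts 1.4.4 and deposited raw counts without scaling or filtering, with SAMtools 1.6 also named in the submitters' processing notes. Whether counting used the strand, and the annotation release, are not given in the sources used here. Of 51826 gene identifiers 51633 were matched to GENCODE M21 (GRCm38), 47648 in the same version; *Nr4a1* was in another version, so its exon length may differ from the one counted.

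Counts were tested with edgeR 4.0.16 in R 4.3.3 (filterByExpr, upper-quartile normalization, glmQLFit and glmQLFTest, Benjamini-Hochberg over all genes tested, adjusted p under 0.05). The comparison of learning in WT mice used the experiment as a batch and 3 RUVr factors, that of genotype after learning the batch and 4, both numbers as in the study's methods, where they were chosen from diagnostics of these same data, with RUVr in a separate implementation. GC normalization, part of the study's methods, was an alternative here. Fits within an experiment shared the spread of all its groups and had no factors. Scripts were tested on simulated data. Fold changes are of the first named group over the second on a log2 scale. Single values were tested with exact permutation tests of log2 CPM. The genes named as called from each list were up to 4 with the lowest p among those called. Others, such as *Cplx3*, *Ccn2*, *Wfs1*, *Nr1d1*, *Nr1d2* and *Ppara* in homecage mice, were named there without being called. RefSeq promoters of GRCm38.p6 were matched by symbol for 3 of 3 members. Alternatives were TMM, DESeq2 1.42.0, no count filter, replicate number as a block, 0 or 1 factor, GC normalization, a homecage fit that took in the WT homecage mice of RNA-Seq 1, and omission of each library. Fits on the groups compared alone, without CBP KIX/KIX homecage replicates 3 and 4, with marker scores as covariates and nearest patterns without replicate 3 were chosen after seeing the data. The members, lists and comparisons were chosen with earlier results of these data known. The p-values of edgeR rest on the spread between mice within groups. In the comparisons with RUVr factors this is the spread left after those factors, which were estimated from the same libraries. Otherwise it is pooled over all groups in the fit. The study's methods give 4 WT homecage mice for CFC, of which 3 were analysed here. Libraries of a group were not copies of each other (chi-square per gene from 2.74 to 93.1 over 30 pairs). Floors cover counting error only.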

Additional observations from a re-analysis of the deposited data

Results flagged for a closer look

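Within the groups of 4 mice the highest or lowest value was compared with its neighbour for the 3 Nr4a genes and *Crebbp*, in 12 such groups of values, where chance flags about 1 in 20. In 2 of the 12 a mouse was far from the others. *Nr4a1* in CBP KIX/KIX homecage replicate 3 was at 288 CPM, where its gap to the next mouse took 0.942 of the range of the group. *Nr4a2* in CBP KIX/KIX CFC replicate 1 was at 80.8 CPM, with a gap of 0.889 of the range. Without that mouse the genotype difference of *Nr4a2* after learning over both experiments was -0.58 ± 0.07 (edgeR, adjusted p = 0.000428). No interaction of the 3 genes passed the threshold.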

How the results depend on the processing

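Values are log2 fold changes with edgeR's adjusted p unless DESeq2 is named, and the cause of a change was not tested unless the setting shows it. In WT learning against homecage mice 194 genes were called, against 589 with DESeq2, 48 with GC normalization, 20 with 1 RUVr factor, 9 with none, 12 with the replicate block alone, 890 with block and factors and 15 with the choroid plexus score. *Nr4a1* passed under every setting run there. *Nr4a2* passed with DESeq2 (0.27, adjusted p = 0.039) and with block and factors (0.28, 0.0458). *Nr4a3* did not pass with the replicate block alone (0.34, 0.204), no factors (0.34, 0.679), 1 factor (0.35, 0.0834) or the choroid plexus score (0.40, 0.326). In CBP KIX/KIX against WT trained mice 443 genes were called, against 165 with GC normalization, 44 with 1 factor, 4 with none, 8 with the replicate block alone, 2703 with block and factors, 233 with the subiculum and deep cortex score, 3 with it and no factors, and 36 with the choroid plexus score. *Nr4a1* did not pass with the replicate block alone (-0.30, 0.41), no factors (-0.30, 0.26), GC normalization (-0.25, 0.0608), 1 factor (-0.31, 0.0516), the subiculum score and no factors (-0.25, 0.607) or the choroid plexus score (-0.32, 0.062). *Nr4a2* did not pass with the replicate block alone (-0.45, 0.175), no factors (-0.42, 0.45), 1 factor (-0.44, 0.071), the subiculum score and no factors (-0.27, 0.562) or the choroid plexus score (-0.48, 0.0642). *Nr4a3* passed with block and factors (-0.13, 0.00125).

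In WT MWM against homecage mice 3 genes were called, against 76 with DESeq2, 131 with no filter and 1 with the replicate block, and *Nr4a1* passed with DESeq2 (1.05, 7.16e-05) and with no filter (1.02, 9.33e-06). After the MWM genotype calls went from 0 to 7 with DESeq2 or no filter and 3 in the groups compared alone, and *Nr4a1* turned to 0.0226 with the subiculum score. In WT CFC against homecage mice *Nr4a1* passed in the groups compared alone (1.17, 1.84e-05, 21 genes called) and without CBP KIX/KIX homecage replicates 3 and 4 (1.16, 0.000151). In CBP KIX/KIX CFC against homecage mice *Nr4a1* turned to 0.23 with the replicate block (4 genes called), 0.0336 with the subiculum score and 1.22 without replicates 3 and 4, and *Nr4a3* to -0.0034 with DESeq2 (301 called) and -0.0163 with no filter (55 called). Without replicates 3 and 4 the homecage difference turned to -0.35 for *Nr4a1* and -0.0377 for *Nr4a3*, and the interaction of genotype and CFC to 0.0582 for *Nr4a1*. With the subiculum score that interaction was -0.17 for *Nr4a2*. Homecage calls went from 2 to 57 with DESeq2, 10 with no filter and 0 with the block or with the RNA-Seq 1 homecage mice added. Genotype calls after CFC went from 2 to 4 with DESeq2 and 1 in the groups compared alone, interaction calls to 1 with DESeq2, and those of learning and experiment to 15 with DESeq2 and 1 with no filter. DESeq2 gave no adjusted p for *Nr4a1* in RNA-Seq 2, and these are not counted as lost.

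Leaving out each library gave ranges of 1.03 to 1.20, 0.14 to 0.32 and 0.27 to 0.40 for *Nr4a1*, *Nr4a2* and *Nr4a3* in WT learning mice, and -0.37 to -0.25, -0.58 to -0.36 and -0.17 to -0.06 in CBP KIX/KIX against WT trained mice. For *Nr4a1* they were 0.83 to 1.24 in WT MWM mice, where it passed without WT homecage replicate 2 (0.0484) or 3 (0.0205), 1.11 to 1.20 in WT CFC mice, -0.56 to 1.29 in CBP KIX/KIX CFC against homecage mice, -0.40 to 1.45 in homecage, -1.73 to 0.12 for the interaction of genotype and CFC, -0.34 to 0.0681 for that of learning and experiment and -0.19 to 0.10 for that of genotype and experiment. For *Nr4a2* they were -0.0907 to 0.70 in CBP KIX/KIX CFC against homecage mice, -0.20 to 0.59 for the interaction of genotype and CFC and -0.42 to 0.0362 for that of genotype and experiment. For *Nr4a3* they were -0.20 to 0.50 in CBP KIX/KIX CFC against homecage mice, -0.20 to 0.50 in homecage, -0.59 to 0.11 for the interaction of genotype and CFC and -0.21 to 0.0794 for that of genotype and experiment. Replicate numbers were not taken as pairs in the main fits or the permutation tests. Same-numbered libraries correlated at -0.06 on average in RNA-Seq 1 (9 pairs, 4 over 0.1) and at 0.23 in RNA-Seq 2 (21 pairs, 15 over 0.1). Differently numbered ones correlated at 0.03 (18 pairs, 7 over 0.1) and at -0.08 (63 pairs, 22 over 0.1). Of the libraries, 3 of 9 and 9 of 15 correlated best with their own number. RNA-Seq 2 libraries were thus more alike within a replicate number, and their depth also differed by number. Depth did not limit the Nr4a values, which had at least 369 counts in each library.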
